A study of Homo sapiens with 4 samples.

Results

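Short m7G peaks that lay in a single block were described in U2OS cells, an established human osteosarcoma line. They were the peaks listed with 1 block of at most 100 nt, where a block is an unbroken stretch of genome and a peak crossing a splice junction has more than 1. The rule took 1009 of the 4326 peaks of immunoprecipitation (IP) replicate 1 (23.3%, Wilson 95% interval 22.1 to 24.6) and 1026 of the 4862 peaks of IP replicate 2 (21.1%, 20 to 22.3). They made up 33.7% and 32.3% of all 1-block peaks. In 87 places a short peak of each table overlapped on the same chromosome and strand as mutually best partners, and these are called short pairs.

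All samples were poly(A) RNA of untreated U2OS cells: 2 input libraries without antibody and 2 libraries made after IP with an anti-m7G antibody. The values are the authors' own: each peak of an IP replicate has a position on GRCh38, a fold of IP over input, a p-value and an FDR (false discovery rate, the share of false calls expected among peaks at that level). No read counts accompany them, so the depth behind a peak is unknown and 1 peak has 1 fold per replicate without an interval. Whether the replicates were separate cultures is not in the labels, so the spread between them may be technical.

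N7-methylguanosine (m7G) is a methylated guanine that carries a positive charge. It forms the 5′ cap of every mRNA made by RNA polymerase II, where it is read by nuclear and cytoplasmic cap-binding proteins, and METTL1 with its partner WDR4 places it inside tRNAs and some mRNAs. An antibody against the base can meet both the cap and an internal site, and the labels do not say whether caps were removed. Neither METTL1 nor WDR4 had a peak of any length in either table.

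The sequences below are shown because both replicates placed a short peak over or just after these mRNA starts. They belong to the 5 genes with this among the strongest, the most significant and the start-nearest short pairs. They are the first 30 bases after the start site in the RefSeq start windows of GRCh38.p14, written 5′ to 3′ in the sense of the mRNA, and capitals mark the bases inside the short peak of both replicates.
PARL (chr3:183884851-183884880, minus strand): AAGGTCGGGCCATGGTGGGGCAGAGGTTGG
TPGS2 (chr18:36828973-36829002, minus strand): GCGAAGGGGAAGCTACGTCCCGGaggtgcg
MFAP2 (chr1:16981554-16981583, minus strand): GCAACTTGGTCTCACAGTGGCTTAGGCCAG
CDCA7L (chr7:21945870-21945899, minus strand): gctcgGGCGCGGGGCGTTCTTGGTGCGCCG
PCYT2 (chr17:81911370-81911399, minus strand): gtcgccgggagCTGCCAGGCTGTCCGCGCC
Of these 30 bases, 16 were guanine in PARL, 15 in CDCA7L, 14 in TPGS2, 12 in PCYT2 and 9 in MFAP2. Short peaks of both replicates also lay over the listed starts of CNPY3-GNMT and NUCB1 and just after that of BTG2. The first 30 bases of CNPY3-GNMT, BTG2 and NUCB1 held 13, 12 and 8 guanines. The annotated span of CNPY3 also covers the place of the CNPY3-GNMT pair. In PARL, TPGS2 and MFAP2 the first base of the listed start lay inside the short peak of both replicates. In CDCA7L the common stretch began at base 6, in PCYT2 at base 12 and in BTG2 at base 18.

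Base composition was measured wherever a peak covered at least 30 of the first 50 bases after a listed start. Short peaks did so at 76 starts in replicate 1 and 59 in replicate 2. Guanine made up 43.3% of the covered bases in replicate 1 and 41.0% in replicate 2. Over the whole first 50 bases of these starts it made up 43.1% and 41.4%, against 33.5% over all 22183 listed starts. At starts under longer or spliced peaks it made up 42.0% and 42.4% of the first 50 bases. Starts under short peaks thus had about the same guanine content as those under other peaks. The motif GANGAN, with N for any base, was found on the RNA strand of 18.4% and 16.9% of starts under short peaks. It was found at 25.1% and 27.2% of starts under other peaks and at 18.7% of all listed starts, where a match is only a run of letters. Its reverse complement stood at 10.5% and 6.78% of starts under short peaks, 9.29% and 6.50% under other peaks and 15.8% of all listed starts. The start table listed a start for 754 of the 930 genes with a short peak in replicate 1, 747 of 927 in replicate 2 and 66 of the 83 genes with a short pair.

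**Figure D1:**
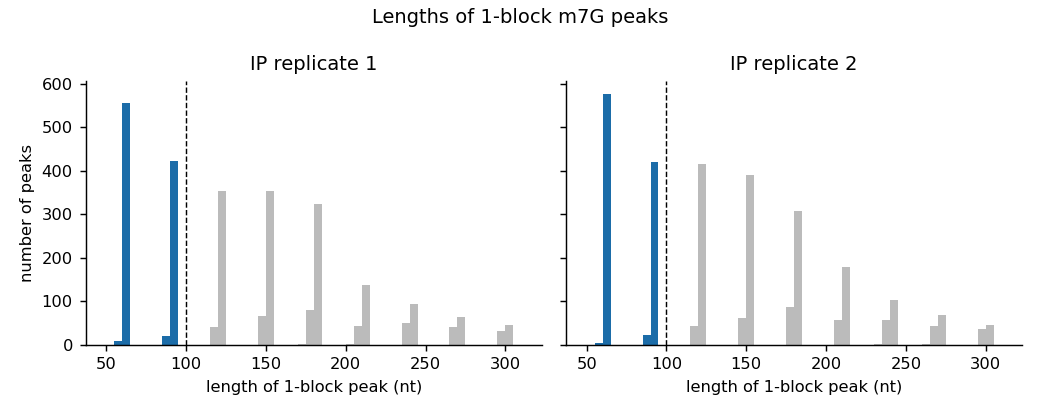
Number of 1-block peaks (y axis) by length in nt (x axis, in 5 nt bins) in each IP replicate, with short peaks in blue and the limit of 100 nt as a dashed line. Lengths fell in classes 30 nt apart, and the short peaks were the first pair of classes.

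Lengths were not continuous. In replicate 1, 565 short peaks (56.0%) were 58 to 61 nt long and the other 444 were 88 to 91 nt long. In replicate 2, 583 (56.8%) were 57 to 61 nt long and 443 were 86 to 91 nt long. The exact lengths 60, 61, 90 and 91 nt took 97.1% and 97.4% of all short peaks, and no peak was as short as 50 nt, as the plot of lengths shows. The next class, at 117 to 121 nt, lies just outside the limit and held 395 and 458 peaks. Its median fold was 4.27 and 3.71, against 3.945 and 3.5 in the class just inside and 3.63 and 3.02 in the shortest. The share overlapped in the other table was 44.6% and 40.8% just outside, 39.9% and 34.8% just inside, and 31.3% and 23.0% in the shortest class. The same spacing appeared between replicates: in all 87 short pairs the start positions of both peaks were within 2 nt of 0, 30, 60 or 90 nt apart (34, 32, 15 and 6 pairs). Start and end were both identical in 18 pairs, and 14 pairs touched by a single base.

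Short peaks were weaker and less significant than the tables at large. Their median fold was 3.83 in replicate 1 (quartiles 2.51 and 5.99, range 1.06 to 92.5) and 3.26 in replicate 2 (2.21 and 4.74, range 1.17 to 70.0). Longer 1-block peaks had medians of 5.32 and 4.33, and peaks of several blocks had 3.19 and 2.58, so short peaks lay between both. A fold of at least 4 was reached by 478 short peaks (47.4%) in replicate 1, where 53.6% of all peaks reached it, and by 379 (36.9%) in replicate 2, against 42.1%. A fold of at least 10 was reached by 98 (9.71%, against 14.5%) and 59 (5.75%, against 10.5%). The contrast was wider for significance: an FDR of 0.001 or less was held by 155 short peaks in replicate 1 (15.4%, against 62.2% of all peaks) and 174 in replicate 2 (17.0%, against 65.3%). The median log10 FDR was -2.23 and -2.22, against -4.525 and -4.98 in longer 1-block peaks. Length and significance come from the same call, so these contrasts were not tested.

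Fewer short peaks than other peaks had a counterpart in the other replicate. In replicate 1, 354 short peaks (35.1%, Wilson 32.2 to 38.1) overlapped a replicate 2 peak of any length by 1 bp or more, with strand respected, against 62.6% of all peaks. In replicate 2, 288 did (28.1%, 25.4 to 30.9), against 55.9% of all peaks. At like FDR the shares lay closer together. At a -log10 FDR of 1.3 to 2, which holds 343 and 340 short peaks, 25.9% and 21.5% of short peaks were overlapped, and 27.3% and 16.4% of other peaks. At a -log10 FDR of 2 to 3, which holds 511 and 512 short peaks, 34.6% and 25.8% of short peaks were overlapped, and 38.6% and 30.9% of other peaks. At 3 to 4 the shares were 52.5% and 47.6% for short peaks and 59.1% and 47.6% for others. At 4 to 9, with 37 and 50 short peaks, they were 70.3% and 48.0% against 81.2% and 69.6%.

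**Figure D2:**
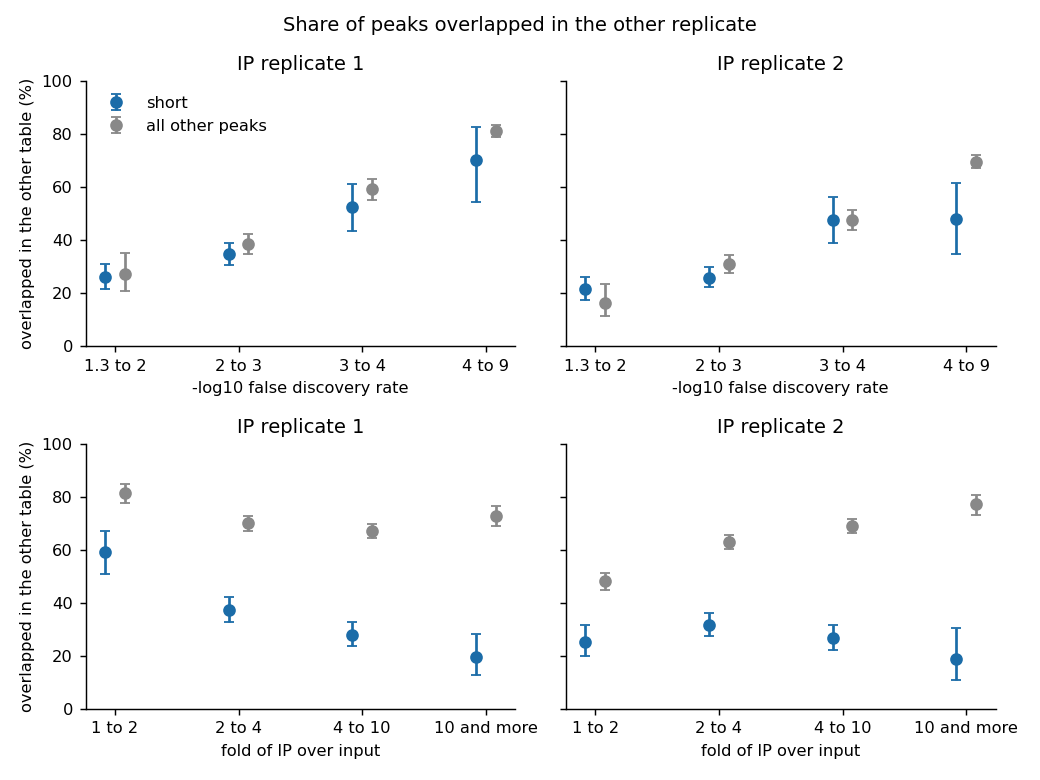
Share of peaks overlapped by a peak of the other replicate (y axis, %) by -log10 FDR (top row) and by fold of IP over input (bottom row), for short peaks (blue) and all other peaks (grey), with Wilson 95% intervals for counting error. Short and other peaks lie close together at like FDR up to 4, and apart in every range of fold: at a fold of 10 and more 19.4% and 18.6% of short peaks were overlapped, against 72.7% and 77.1% of others.

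Short peaks of high fold seldom had a counterpart. In replicate 1 the overlapped share of short peaks was 59.2% at a fold of 1 to 2 (84 of 142), 37.3% at 2 to 4 (145 of 389), 27.9% at 4 to 10 (106 of 380) and 19.4% at 10 and more (19 of 98). In replicate 2 it was 25.2%, 31.7%, 26.6% and 18.6% over the same ranges, with 11 of 59 in the last. Among other peaks at a fold of 10 and more, 72.7% and 77.1% were overlapped. The median log10 FDR of short peaks at that fold was -2.24 and -2.27, and that of other peaks -6.18 and -6.99.

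The highest folds of short peaks took few distinct values. Of the 98 short peaks at a fold of 10 and more in replicate 1, 60 (61.2%) had exactly the fold and log10 p of another such peak, and in replicate 2 38 of 59 (64.4%) did. Among longer 1-block peaks at that fold the shares were 21.0% and 19.2%. In replicate 1 a fold of 55.5 with a log10 p of -3.37 was listed for 5 short peaks, named for DBH (dopamine beta-hydroxylase), DENND1A, FLG (filaggrin, of the epidermis), MAP3K13 and OPRK1 (the kappa opioid receptor). In replicate 2 a fold of 40.0 with a log10 p of -3.57 was listed for 5, named for COQ2, NOS1 (neuronal nitric oxide synthase), SFMBT2, TVP23C and ZG16B. These genes were chosen after their values were seen. Folds also fell on a ladder whose step was the most frequent fold of 10 or more, 18.5 in replicate 1 and 10.0 in replicate 2. Of the short peaks at or above the step, 29 of 35 (82.9%) and 29 of 59 (49.2%) were whole multiples of it, against 53.0% and 29.1% of all peaks, within 0.05 (0.5 from a fold of 100). Without the peaks at the step itself, whose frequency chose it, 16 of 22 (72.7%) and 20 of 50 short peaks were multiples, against 67 of 186 (36.0%) and 88 of 449 (19.6%) of all peaks. Below it, the most frequent short folds were 6.17 (23 peaks) in replicate 1 and 5.00 (25 peaks) in replicate 2.

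The highest folds without a counterpart lay on genes of varied function. In replicate 1 they lay on SIRT3, the mitochondrial deacetylase (92.5-fold), then at 74.0-fold RNF207, PRELID2 and SORBS3, an adaptor of cell adhesion. In replicate 2 they lay on CD70, a ligand of the TNF family (70.0-fold), and then at 50-fold ACTR3, a subunit of the Arp2/3 complex, BCL11B, a transcription factor of the T cell lineage, HCN4, a pacemaker channel, and IFNGR2, a chain of the interferon gamma receptor. The 3 peaks at 74.0-fold had the same log10 FDR of -2.51. BCL11B, HCN4 and IFNGR2 shared a log10 FDR of -2.53, whereas ACTR3 reached -5.27 and CD70 -6.71. SORBS3, ACTR3 and IFNGR2 are named for these ties, after their values were seen. None of these peaks overlapped a peak of the other table.

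Where a short peak had a counterpart, the counterpart was usually not short, which also held for most peaks of each table. The best partner of a replicate 1 short peak was a longer 1-block peak in 200 of 354 (56.5%), a peak of several blocks in 67 and a short peak in 87. For replicate 2 the counts were 159 of 288 (55.2%), 42 and 87. A short peak was thus the best partner for 24.6% and 30.2%. Of all peaks in the tables of these partners, 21.1% and 23.3% were short. The longer 1-block partners had a median length of 151 and 180 nt, and 239 (67.5%) and 183 (63.5%) of the overlapped short peaks lay wholly inside their partner. Over longer 1-block partners the median log10 FDR was -4.37 and -3.98, against -2.535 and -2.37 for the short peaks that they overlapped. All longer 1-block peaks of the tables of these partners had -4.98 and -4.525.

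Examples with a high fold in both tables, chosen after their values were seen, lay near the gene start and elsewhere. PDS5B, a regulator of cohesin, had a 61 nt peak of 18.5-fold in replicate 1 and a spliced 241 nt peak of 25-fold in replicate 2. CHSY1, which builds chondroitin chains, had a 91 nt peak of 12.3-fold inside a 390 nt peak of 12.5-fold. SKI, a repressor of TGF-beta signalling, had a 91 nt peak of 25-fold in replicate 2 and a 120 nt peak of 30.8-fold in replicate 1. SMDT1, a subunit of the mitochondrial calcium uniporter, had a 90 nt peak of 15.0-fold in replicate 2 and a 119 nt peak of 14.4-fold in replicate 1. ZC3H7B, a CCCH zinc finger protein, had a 61 nt peak of 11.4-fold in replicate 2 and a 180 nt peak of 14.8-fold in replicate 1, 150 nt from the gene end. In these 5 genes the peaks of both replicates overlapped and lay on either side of the limit of 100 nt.

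Of the short peaks with no overlap, 39.4% (258 of 655) and 40.2% (297 of 738) lay on a gene that had some peak in the other table. A peak of that gene was within 200 nt for 7.33% and 6.50%. Of the 930 and 927 genes with a short peak, 306 (32.9%) and 318 (34.3%) also had a longer or spliced peak in the same table. Several short peaks on 1 gene were found for 71 and 84 genes. The like counts were not made for other peaks, so none of these values is read as particular to short peaks. TBC1D16, a GTPase-activating protein for RAB proteins, had 3 in each table, from 3.70-fold to 6.17-fold in replicate 1 and from 4.78-fold to 8.75-fold in replicate 2. KDM2A, a histone H3 demethylase, and PRR12 each had 4 in replicate 2, from 2.67-fold to 7.78-fold and from 2.05-fold to 5.00-fold.

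The 87 short pairs lay on 83 protein-coding genes, 0.414% of the 20056 annotated. Their median fold was 3.60 in replicate 1 and 3.19 in replicate 2, and 57 of the 87 were higher in replicate 1. Both folds of a pair differed by a median of 0.20 on the log2 scale, a factor of 1.15, with a 95th percentile of 0.92 (1.89). All 2640 shared peaks differed by a median of 0.30 (1.23) and a 95th percentile of 1.28 (2.42). Over overlaps that were short in at least 1 table the median was 0.32. The gap between 0.20 and 0.32 lay within 1 SD of the values over pairs, and none of these medians was tested against another. The Spearman correlation of the folds was 0.873 over the 87 pairs, a description across peaks that share their libraries. Only pairs past the authors' threshold in both tables enter this spread, so it may understate the error of a single short peak. In 23 pairs (26.4%) both folds were at least 4, against 42.9% of all shared peaks, and in 2 pairs both were at least 10.

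**Figure D3:**
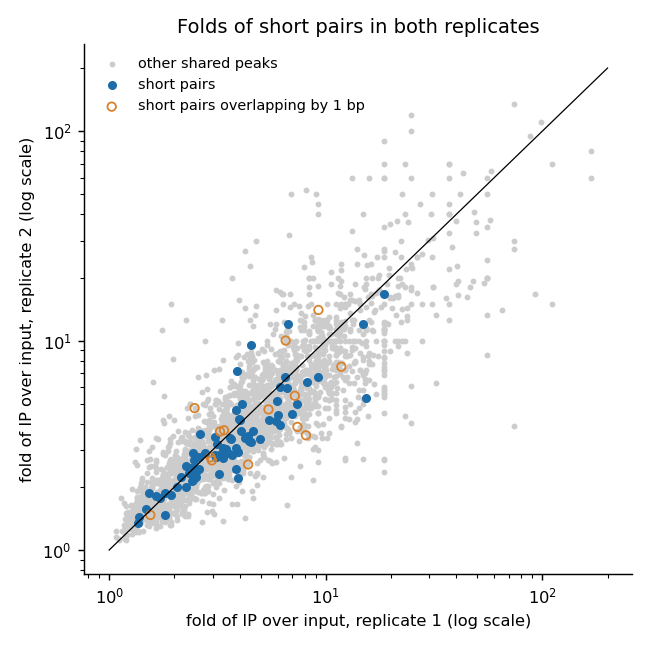
Fold of IP over input in replicate 1 (x axis) and replicate 2 (y axis), both on log scales, for short pairs (blue), short pairs that overlap by 1 bp (open orange circles) and other shared peaks (grey), with the line of equal folds. The short pairs lie in the lower part of the cloud, with KIF1A highest at 18.5-fold and 16.7-fold.

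By the lower of both folds, KIF1A came first (18.5-fold and 16.7-fold). It encodes a kinesin that carries synaptic vesicle precursors, and its pair, at chr2:240716339-240716429 on the minus strand, had its middle 2617 nt inside the gene end. Its log10 FDR was -1.58 and -1.76, and in replicate 2 a total of 6 short peaks, including those on CD207 and SLITRK2, had its fold and p. RTL5, a gene derived from a retrotransposon (named RGAG4 in the tables), had 14.8-fold and 12.0-fold, in a place that the annotated span of NHSL2 also covers. These were the 2 pairs with both folds at 10 or more.

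The next pairs by that order ran from 9.25-fold down to 6-fold at the weaker replicate. PURG, a nucleic acid-binding protein, had 9.25-fold and 14-fold, and TMEM127, a tumour suppressor of the endolysosomal membrane, had 11.8-fold and 7.50-fold. ARMC5, an adrenal tumour suppressor, had 6.53-fold and 10.0-fold. In PURG, TMEM127 and ARMC5 the replicates touched by 1 bp, so the calls lay on neighbouring stretches. RNF187, a RING finger ubiquitin ligase, had 9.25-fold and 6.67-fold. SLCO2A1, the prostaglandin transporter, had 6.48-fold and 6.67-fold. CAP2, an actin regulator, had 6.17-fold and 6-fold over an identical 91 nt, with its middle 105 nt after the annotated gene start.

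Several pairs at the gene start have their sequences printed above. PARL, a protease of the inner mitochondrial membrane, had 8.22-fold and 6.32-fold, 16 nt after the annotated start. TPGS2, a subunit of the enzyme that adds glutamate chains to tubulin, had 6.66-fold and 12.0-fold. CDCA7L, a nuclear partner of MYC, had 4.11-fold and 5.00-fold. All 3 had a lower fold of at least 4, as did PCYT2, which activates ethanolamine for phospholipid synthesis (7.40-fold and 5.00-fold). ARPC2, a subunit of the Arp2/3 complex that nucleates branched actin, had 15.4-fold and 5.33-fold. Its pair, at chr2:218217094-218217212 on the plus strand, had its middle 36 nt before the annotated start and under the span of LOC101928487 as well. ARPC2 had the widest gap between replicates of any short pair, 1.53 on the log2 scale, and still a log10 FDR of -5.07 and -4.75.

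The most significant pairs were not the strongest. IPO7, a nuclear import receptor, had the same 91 nt in both tables (chr11:9445375-9445465, plus strand), at 3.12-fold and 2.79-fold, with a log10 FDR of -4.92 and -5.38. MFAP2, a glycoprotein of elastic microfibrils, had identical 61 nt peaks of 2.27-fold and 2.00-fold, with -4.72 and -4.70. SLC1A5, the neutral amino acid transporter ASCT2, had 4.63-fold and 3.68-fold, with -4.21 and -4.6. TRAM1, of the endoplasmic reticulum translocon, had 2.43-fold and 2.89-fold. In 10 pairs the FDR was 0.001 or less in both replicates.

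At the low end lay mRNAs of general cell functions. RAB5C, a GTPase of early endosomes, had 1.36-fold and 1.35-fold, and the spindle factor TPX2 had 1.38-fold and 1.43-fold. POLR2A, the largest subunit of RNA polymerase II, had 1.55-fold and 1.47-fold, with 1 bp in common. NDUFB10, of respiratory complex I, had 1.48-fold and 1.57-fold, and NCKAP1, of the WAVE complex, 1.72-fold and 1.77-fold. These 5 had the lowest values of the higher fold, a choice that keeps both folds close. Of the 87 pairs, 10 had a lower fold of 2 or less.

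The pairs that differed most after ARPC2 were COX20, a cytochrome c oxidase assembly factor (8.10-fold and 3.53-fold), and PFDN6, a prefoldin subunit (4.50-fold and 9.50-fold). ZNF703, a transcriptional repressor, had 2.48-fold and 4.76-fold, and SFT2D3, a vesicle transport protein, 7.40-fold and 3.87-fold under a span of WDR33. COX20, ZNF703 and SFT2D3 were 1 bp overlaps. Over the 14 pairs with 1 bp in common the median difference was 0.50 on the log2 scale, against 0.18 in the other 73.

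More than 1 short pair was found on 4 genes, with 2 each. BTG2, an antiproliferative adaptor of mRNA deadenylation, had 3.94-fold and 2.94-fold near its start and 3.15-fold and 3.19-fold further on, 1445.5 nt from the gene end. IPO7 had a second pair of 2.06-fold and 2.01-fold. TPX2 had its second at 2.40-fold and 2.13-fold, 93.5 nt from the start. VANGL2, a planar cell polarity protein, had 3.84-fold and 4.67-fold, then 4.01-fold and 4.17-fold. In IPO7 both short pairs lay in the last part of the gene span, 7608 and 2707 nt from the gene end.

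**Figure D4:**
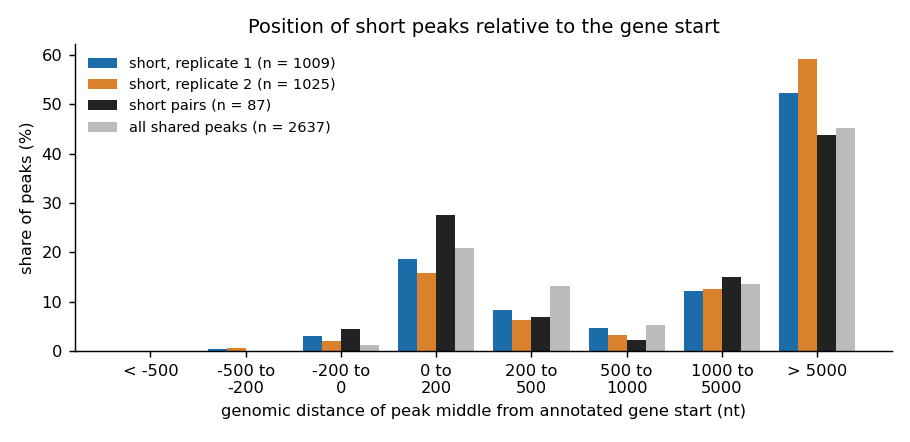
Share of peaks (y axis, %) by genomic distance of the peak's middle from the annotated gene start (x axis, nt, negative before the start, introns included), for short peaks of replicate 1 (blue) and 2 (orange), short pairs (black) and all shared peaks (grey). Of the short pairs 27.6% lie 0 to 200 nt after the start, against 20.9% of all shared peaks. At 200 to 500 nt it is 6.9% against 13.3%, and the middle of a longer peak lies further from its first base. In each set the largest bin is beyond 5000 nt.

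Position along the gene was measured from the middle of the peak to the annotated gene start, in genomic distance. Within 200 nt on either side lay 221 short peaks of replicate 1 (21.9%, against 22.5% of all peaks) and 184 of replicate 2 (18%, against 19.0%). Of the short pairs 28 (32.2%, Wilson 23.3 to 42.6) lay there, against 22.4% of all shared peaks. The interval, which covers counting error alone, lies just above the share of all shared peaks. At 200 to 500 nt after the start lay 6.9% of the short pairs and 13.3% of all shared peaks. Within 500 nt the shares were 39.1% (29.5 to 49.6) and 35.7%, and the interval holds both. The middle of a longer peak that begins at the start lies further along. The share within 200 nt is thus not like for like between short and longer peaks. Each table alone was at its background, and the difference in the pairs was not tested. Near the start the median fold of short peaks was 4.63 and 4.245, against 3.63 and 3.02 elsewhere. There 40.3% and 41.3% were overlapped in the other table, against 33.6% and 25.2% elsewhere. The like shares were not counted for other peaks, so this difference is not read as particular to short peaks. Within the short pairs the lower fold had a median of 3.05 near the start and 3.06 elsewhere, whereas all shared peaks had 4.57 and 3.17.

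Near the gene end short pairs were at the background: 14 (16.1%) lay within 1000 nt of it, against 15.3% of all shared peaks. With a fold of at least 4 in both tables, the nearest to the end was PFDN6, 44.5 nt from it over an identical 90 nt. IER2, an immediate-early gene, had 7.02-fold and 4.44-fold, 81.5 nt from the end, also over identical bases. CDK9, the kinase of the elongation factor P-TEFb, had 5.48-fold and 4.17-fold, 301.5 nt from the end.

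Gene groups were described by how many members held a short peak. A member without one in a table may still have a longer or spliced peak there, also in the same place. The median fold of a group takes the highest short fold of each member. Over all annotated protein-coding genes this was 929 in replicate 1 (4.63%), 923 in replicate 2 (4.60%) and 1665 in either (8.30%). That denominator includes genes without a peak of any length. Of the 4343 protein-coding genes with any peak, 38.3% had a short peak in either table, and that share is the closer comparison.

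Among 40 actin cytoskeleton genes, 7 had a short peak in replicate 1 and 6 in replicate 2, and ARPC2 alone had a pair. Their median folds were 1.78 and 1.815, and 11 of the 31 members with any peak (35.5%) were among them. MYH9, non-muscle myosin, had 1.33-fold and 1.25-fold at different places. ACTR3, at 50-fold in replicate 2 without a counterpart, was also among them. Among 51 splicing factors 9 and 7 had one, at medians of 1.79 and 1.55, and HNRNPK, an abundant hnRNP, had a pair of 1.64-fold and 1.81-fold.

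Cell cycle genes held 8 and 5 of 37, with pairs on CDK2 and TPX2. CDK2, the kinase of cyclin E and cyclin A, had 3.45-fold and 3.02-fold, with the middle of the pair 1.5 nt before the annotated start. Also close to the start were short peaks of replicate 1 alone on PLK1, a mitotic kinase (5.84-fold), CCNE1, which encodes cyclin E1 (2.59-fold), and the spindle motor KIF11 (3.56-fold). Of the 23 cell cycle genes with any peak, 11 (47.8%) had a short one.

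Of 32 listed genes with a regulatory role, whose numbers of coding exons were not checked, 8 and 7 had a short peak. They were 11 of the 19 with any peak (57.9%). IER2 had the pair. CEBPB, a transcription factor of the bZIP family, had 10.1-fold in replicate 1 and 1.45-fold in replicate 2 at different ends of the gene, and POU3F3, a neural POU factor, had 4.24-fold and 3.61-fold at separate places. Among 30 Hippo pathway genes 3 and 6 had one. CCN1, a secreted target of YAP1 (CYR61 in the tables), had the pair, at 1.53-fold with a log10 FDR of -1.91 and 1.87-fold with -7.58. YAP1, TEAD1, QKI, G3BP1 and CCND1 had peaks in both tables and no short one.

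Zinc finger genes named ZNF held 13 and 14 of 510, or 23 of the 76 with any peak (30.3%). Their medians over genes, each with its highest short fold, were 4.35 and 3.795. Those of all protein-coding genes with a short peak, taken the same way, were 3.91 and 3.41. Pairs lay on ZNF703, on ZNF696 (3.60-fold and 3.42-fold) and on ZNF316 (2.46-fold and 2.47-fold). Chromatin remodellers and modifiers held 7 and 7 of 46, at medians of 4.07 and 4.44, without a pair.

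The remaining lists had no short pair. Ribosomal protein genes held 2 of 81 in replicate 1 and 8 in replicate 2, 10 different genes and 20.8% of the 48 with any peak. In replicate 1 both lay at the start of the gene, RPS20 at 2.92-fold with its middle 45 nt before the annotated start, and RPS23 at 3.83-fold, 17 nt before it. In replicate 2 the median was 1.565, and RPL13 had the most significant short peak of the table at 1.62-fold (log10 FDR -8.35). Translation factors held 5 and 3 of 41, at medians of 1.68 and 1.62. Matrix and osteoblast genes held 7 and 5 of 40, 12 different genes, at 1.71 and 1.52, among them COL6A1 (1.71-fold) in replicate 1 and LOX (2.42-fold), which cross-links collagen, in replicate 2.

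Stress granule proteins held 7 of 38 in replicate 1 and 1 in replicate 2. LARP1, which binds the cap of terminal oligopyrimidine mRNAs, was in both, at 2.22-fold and 1.72-fold in places far apart. The replicate 1 short peaks of CAPRIN1, ELAVL1, LARP1 and PRRC2B overlapped a replicate 2 peak that was not short. Those of FXR2, PRRC2A and IGF2BP2 overlapped none. Glycolysis genes held 4 of 18 and 0 of 18: HK2 (8.54-fold), ENO1 (5.63-fold), GPI (4.93-fold) and PKM (1.06-fold). The PKM peak overlapped a replicate 2 peak that was not short, whereas those of HK2, ENO1 and GPI overlapped none. The difference between the tables was not tested for either list. Of m6A factors 2 and 1 of 19 had a short peak, of m7G and cap proteins 2 and 1 of 22, of chaperones 1 and 2 of 28, and of tubulins and intermediate filaments 3 and 3 of 17. As a share of members with any peak, a short one in either table was held by 6 of 11 tubulins and intermediate filaments (54.5%), 12 of 30 matrix genes (40.0%), 8 of 25 translation factors (32.0%) and 7 of 27 stress granule genes (25.9%). It was held by 14 of 42 splicing factors (33.3%), 7 of 16 Hippo genes (43.8%), 12 of 39 chromatin genes (30.8%) and 4 of 14 glycolysis genes (28.6%). The smallest lists gave 3 of 9 m6A factors, 2 of 7 m7G and cap proteins and 3 of 17 chaperones.

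Markers of other cell types were counted in the same way. Haematopoietic (0 of 5) and hepatocyte (0 of 4) markers had no short peak and no longer one. A short peak was held by 1 of 5 neuronal markers, SYP (4.35-fold in replicate 2), and by 1 of 4 epithelial markers, CLDN4 (3.57-fold in replicate 1), and a peak of any length by 3 and 2 of them. Of 5 osteoblast or mesenchymal markers, 2 had a short peak in replicate 1, SPARC (1.19-fold) and VIM (1.08-fold). In replicate 2 it was 0 of 5, although the SPARC and VIM peaks each overlapped a replicate 2 peak that was not short. A peak of any length was held by 3 of the 5. An enrichment is not an expression level, so these counts do not measure the makeup of the cells.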

How the data were processed

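m7G IP and input libraries came from U2OS poly(A) RNA (2 of each), grouped by their titles. The submitters' processing notes name STAR and GRCh38. Not given in the sources used here are the peak caller and the scaling of folds. The authors deposited 1 peak table per IP replicate, so peaks were called per replicate. Per the file headers, each deposited row gives a fold enrichment (a linear ratio of IP over input), a p-value, and the log10 p and log10 FDR, treated as a score. Input libraries enter only through these folds.

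Short peaks had 1 block of at most 100 nt. Blocks were compared on the same strand with at least 1 bp of overlap, and pairs are mutually best overlaps. Symbols, then synonyms, were looked up in RefSeq (GRCh38.p14) among genes within 2000 nt of the peak: 963 and 46 short peaks of replicate 1, and 974 and 51 of replicate 2, with 0 and 1 unmatched. Distances are genomic, from the middle of the joined blocks of a pair. Coordinates are 1-based. Motifs were searched on both strands of the first 50 bases of RefSeq start windows. Without a genome or transcript models, exon, intron and UTR classes and the sequences of other peaks were not analysed here.

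Every comparison is a description: 1 fold per peak and replicate, without counts, allows no model across peaks. Wilson 95% intervals cover counting error only, and peaks of 1 library are not independent. The members and the 21 gene lists were chosen with earlier results of these data known. Named genes were, among short pairs on protein-coding genes, the 10 with the highest lower fold, the 5 most significant at the weaker replicate, the 5 with the lowest folds and the 5 with the widest difference. With both folds at least 4, the 5 nearest the gene start and the 3 nearest the gene end were added. So were the genes with most pairs, up to 3 per list, the 3 highest folds without overlap in each replicate, and METTL1 and WDR4, CCND1, G3BP1, QKI, TEAD1 and YAP1. The genes with most pairs were to be 3, but 4 genes tied. Sequences are printed for those of the highest, most significant and nearest pairs whose first bases lay in both peaks. Other genes were chosen after their values were seen. The ranges of fold, the repeated values and the start spacing were also added then. Overlap code was tested on simulated data. Alternatives changed the length limit, FDR, overlap, distances, tolerance of multiples and replicates. Software was matplotlib 3.10.9, scipy 1.17.1, pandas 2.3.3, numpy 2.4.6 and Python 3.11.15.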

Additional observations from a re-analysis of the deposited data

How the results depend on the processing

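No paired analysis was possible because each result is a description of peaks with 1 deposited fold per IP replicate, with no counts and no per-sample input values. With a limit of 150 nt short peaks were 38.8% and 36.2% of the tables, 41.2% and 35.9% of them were overlapped, and there were 350 pairs. With a limit of 50 nt the share was 0% in both replicates, so no other result has a value there. At an FDR of 0.01 or less the shares of the tables were 17.3% and 15.7%, with 43 pairs. A reciprocal overlap of 50% lowered the overlapped shares to 16.4% and 13.1%, and overlap with a short peak alone gave 8.62% and 8.48%. Of the pairs 21.8% lay within 100 nt of the gene start. The GC content of pairs over gene starts was 72.7% on the joined stretch (11 starts) and 68.3% on the common stretch (7 starts). With 1 replicate left out, short peaks of the other table stood in for pairs: the share near gene starts ranged from 18% to 21.9%, the median fold from 3.26 to 3.83, and list members with a short peak from 76 to 87. A tolerance of 1 SD was used for folds, over the 2 replicate medians, and for the replicate difference, over pairs. The other 32 values stayed within that, the interval of a share or 1.5 times a count. They include 62 pairs at a reciprocal overlap of 50%, a median replicate difference of 0.32 on the log2 scale, against 0.20, for overlaps short in at least 1 table, and 73 pairs with at least 2 bp of overlap, an alternative chosen after seeing the data, as was the nearest of all listed starts (35.6% of pairs). Depth is unknown, so no limit of detection can be set for a missing peak.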

Other observations

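RefSeq lists 1562 miRNA hairpins for GRCh38.p14. On the same strand, 0 of the 1009 short peaks of replicate 1 and 2 of the 1026 of replicate 2 overlapped one. Among the other peaks, 4 and 6 did, so such overlaps were rare in both kinds. These other peaks were 1984 and 2150 longer 1-block peaks with 1333 and 1686 of several blocks. A 2.08-fold peak named for ZNF207 covered 65 bases of the MIR632 hairpin. A 2.84-fold peak named for ATF5 reached 5 bases into the MIR4751 hairpin and none of its mature miRNA. Neither hairpin was covered by a peak of replicate 1.

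The gene with most short peaks in a table was LOC102724560, with 5 in replicate 2, from 2.42-fold to 2.64-fold. As a near-identical copy of CBS, it shares reads with that gene, and its peaks are uncertain.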
